A study of Mus musculus with 108 samples.

Results

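Liver zonation was examined at 10 genes, 6 of the pericentral zone (Glul, Axin2, Lgr5, Tbx3, Oat and Rhbg) and 4 of the periportal zone (Cdh1, Hal, Sds and Gls2), out of 26089 genes with a curated RefSeq transcript. They were chosen by name, from the place in the lobule for which they are known, and no chromatin state is part of that rule. Earlier results of these data were known, however, when the genes were chosen. For each gene the states were read at the bin of the transcription start site (TSS), within 2 kb of the TSS, over the gene body, and over 50 kb on each side of the gene.

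Livers of inbred C57BL/6 female mice had been fixed in formalin and embedded in paraffin, and 4 histone marks (H3K4me3, H3K27ac, H3K4me1 and H3K27me3) were profiled on their chromatin. The SD 3m group consisted of 8 mice aged 3 months on standard diet (30 libraries), and the SD 12m group of 8 mice aged 12 months on the same diet (29 libraries). The CR 12m group consisted of 9 mice aged 12 months that received 30% fewer calories from the age of 3 months onwards (29 libraries). The marks were not covered equally. For H3K4me3, H3K27me3, H3K27ac and H3K4me1 there were 7, 7, 8 and 8 libraries in SD 3m. SD 12m had 8, 8, 7 and 6, and CR 12m had 5, 6, 9 and 9. The effect of these numbers on the states was not tested. The authors merged the libraries of a group and assigned every bin of 200 bp to 1 of 8 states, so each group has a single segmentation, the spread among mice is unknown and no test between groups was run. SD 6m was not analysed here.

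In the liver lobule, blood flows from the portal tracts to the central vein, and hepatocytes differ along that path. Wnt ligands from the endothelium of the central vein act through beta-catenin on the nearest hepatocytes, which make glutamine from ammonia, whereas periportal hepatocytes break down amino acids and make urea and glucose. H3K4me3 is typical of active promoters, H3K27ac of active promoters and enhancers, H3K4me1 of enhancers, and H3K27me3 of regions silenced by Polycomb.

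The states are numbered as deposited. State 1 (active TSS) carries H3K4me3 and H3K27ac, and state 2 (flanking TSS) carries H3K4me1 as well. State 3, active enhancer (1), carries H3K27ac and H3K4me1, state 4, active enhancer (2), carries a weaker H3K27ac, and state 5 (poised enhancer) mostly H3K4me1. State 6 (repressed Polycomb) has H3K27me3, state 7 (repeats and constitutive lamina-associated domains) a weak H3K4me3, and state 8 (quiescent) none of the 4 marks. A state is a label and not a signal level, and the read depth behind it is unknown. Where 3 values stand without group names, they follow the order SD 3m, SD 12m, CR 12m. Whole livers were profiled and no zone was separated, so fewer cells with a mark and less mark per cell cannot be told apart in any of the values that follow.

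The tissue was checked at the TSS of marker genes. All 10 hepatocyte markers were in states 1 to 5 in every group, and none of 7 genes of other tissues was (Hbb-b1, the eighth of that list, was not matched). Markers of 8 genes each for other liver cells were in states 1 to 5 in 3, 4 and 5 cases for cholangiocytes in SD 3m, SD 12m and CR 12m. The same counts were 5, 6 and 8 for endothelial cells, 3, 2 and 2 for stellate cells, and 3, 2 and 1 for Kupffer cells and leukocytes. The part of these other cells in the states of the zonation genes was not tested. Over the genome, state 5 covered 5.4% of the bins (SD 3m), 2.7% (SD 12m) and 2.39% (CR 12m), and state 6 covered 9.48%, 14.4% and 10.3%.

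The promoter sequence gives a first difference among the genes that does not depend on the mice. The RefSeq promoter table for GRCm38.p6, the assembly that mm10 represents, had an entry for Glul, Axin2, Oat and Hal, 4 of the 10 genes. Glul is shown as the gene whose TSS kept state 1, and the other 3 were chosen after their states were seen. The 250 bases before each TSS are printed from 5′ to 3′ on the strand of the gene, and capitals mark CpG dinucleotides.
Glul, chr1:153899679-153899928, plus strand: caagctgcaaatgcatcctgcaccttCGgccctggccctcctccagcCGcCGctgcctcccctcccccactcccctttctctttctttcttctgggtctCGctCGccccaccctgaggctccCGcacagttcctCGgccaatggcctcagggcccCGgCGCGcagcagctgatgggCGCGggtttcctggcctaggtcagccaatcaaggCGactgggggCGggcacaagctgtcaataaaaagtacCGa
Axin2, chr11:108920099-108920348, plus strand: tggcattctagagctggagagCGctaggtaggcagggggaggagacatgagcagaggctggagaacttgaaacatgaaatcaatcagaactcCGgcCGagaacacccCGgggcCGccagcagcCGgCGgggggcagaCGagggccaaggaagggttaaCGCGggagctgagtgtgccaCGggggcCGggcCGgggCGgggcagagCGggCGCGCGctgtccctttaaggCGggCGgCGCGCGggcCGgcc
Oat, chr7:132576399-132576648, minus strand: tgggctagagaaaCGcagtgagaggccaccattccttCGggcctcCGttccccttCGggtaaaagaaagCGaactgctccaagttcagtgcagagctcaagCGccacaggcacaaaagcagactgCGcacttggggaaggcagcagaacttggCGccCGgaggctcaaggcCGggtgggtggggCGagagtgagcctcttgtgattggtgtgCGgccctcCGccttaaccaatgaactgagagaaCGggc
Hal, chr10:93488518-93488767, plus strand: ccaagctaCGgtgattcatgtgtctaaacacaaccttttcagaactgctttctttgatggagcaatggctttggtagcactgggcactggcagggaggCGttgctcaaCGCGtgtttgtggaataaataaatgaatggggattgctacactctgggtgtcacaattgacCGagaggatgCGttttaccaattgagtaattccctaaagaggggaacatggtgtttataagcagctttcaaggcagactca

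Over the whole entry of 300 bp (250 before to 50 after the TSS), Axin2 held 31 CpG, Oat 22, Glul 17 and Hal 7, and the median of 32619 promoters was 7. The observed over expected CpG ratio was 0.886 for Axin2, 0.78 for Oat, 0.559 for Glul and 0.431 for Hal, against a median of 0.387. Hal, the promoter with the fewest CpG of the 4, was also the only one of them whose TSS bin was in state 3 in all 3 groups. Of the motifs searched on both strands, the GC box GGGCGG was found once in Glul and 2 times each in Axin2 and Oat, and 35.9% of all promoters hold it. Hal held the TATA box TATAAA on the opposite strand, at bases -28 to -23 with the TSS counted as 0, and 13.7% of all promoters hold that motif. The TCF/LEF motif CTTTGAT was found in Hal alone among the 4, at bases -199 to -193, and 3.76% of all promoters hold it. These motifs do not overlap each other, and a match describes letters only.

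At the TSS bin, 8 of the 10 genes were in states 1 to 5 (SD 3m), 8 (SD 12m) and 9 (CR 12m), against 58.2%, 58.3% and 58.9% of all TSS. SD 12m and SD 3m gave the TSS bin different states at 5 of the 10 genes, and at 32.6% of all 26089 TSS. CR 12m and SD 3m gave it different states at 5 of the 10, against 34.7% of all TSS. CR 12m and SD 12m did so at 2 of the 10 (Rhbg and Sds), against 26.7%. The 5 genes were Axin2, Oat, Rhbg, Cdh1 and Sds in each of the first 2 comparisons, which have SD 3m in common. When the bin 1 place downstream was read instead, 1 gene differed between CR 12m and SD 12m, because Rhbg lay at the edge of a state in SD 12m.

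Glul, Lgr5, Tbx3, Hal and Gls2 held their TSS state in all 3 groups. Glul and Gls2 were in state 1, like 5411 TSS (20.7%) that were in state 1 in every group, and Lgr5 was in state 8, like 4479 TSS (17.2%). Tbx3 was in state 4 and Hal in state 3 throughout, paths shared by 2.83% and 4.71% of all TSS. Among the 5 that differed, Oat had states 1, 4 and 4 in SD 3m, SD 12m and CR 12m, Cdh1 had 2, 3 and 3, and Axin2 had 5, 4 and 4. These 3 paths were held by 1.65%, 1.85% and 1.82% of all TSS.

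Rhbg and Sds crossed between the active states 1 to 5 and states 6 to 8. Rhbg was in state 1 (SD 3m), 6 (SD 12m) and 4 (CR 12m), a path shared with 1 other TSS of the 26089. Sds was in state 8 (SD 3m), 1 (SD 12m) and 3 (CR 12m), and no other TSS had that path. A move into states 1 to 5 was thus seen for 1 of the 10 genes (Sds) in SD 12m against SD 3m, with 2.6% of all TSS, and for 1 (Sds) in CR 12m against SD 3m, with 3.39%. A move out of states 1 to 5 in SD 12m against SD 3m was seen for 1 (Rhbg), with 2.48% of all TSS. From states 1 or 2 to states 3 to 5, the TSS bin moved for 2 genes (Oat and Cdh1) in SD 12m against SD 3m, with 6.03% of all TSS. In CR 12m against SD 3m the same move was seen for 3 genes (Oat, Rhbg and Cdh1), with 9.81%.

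**Figure D1:**
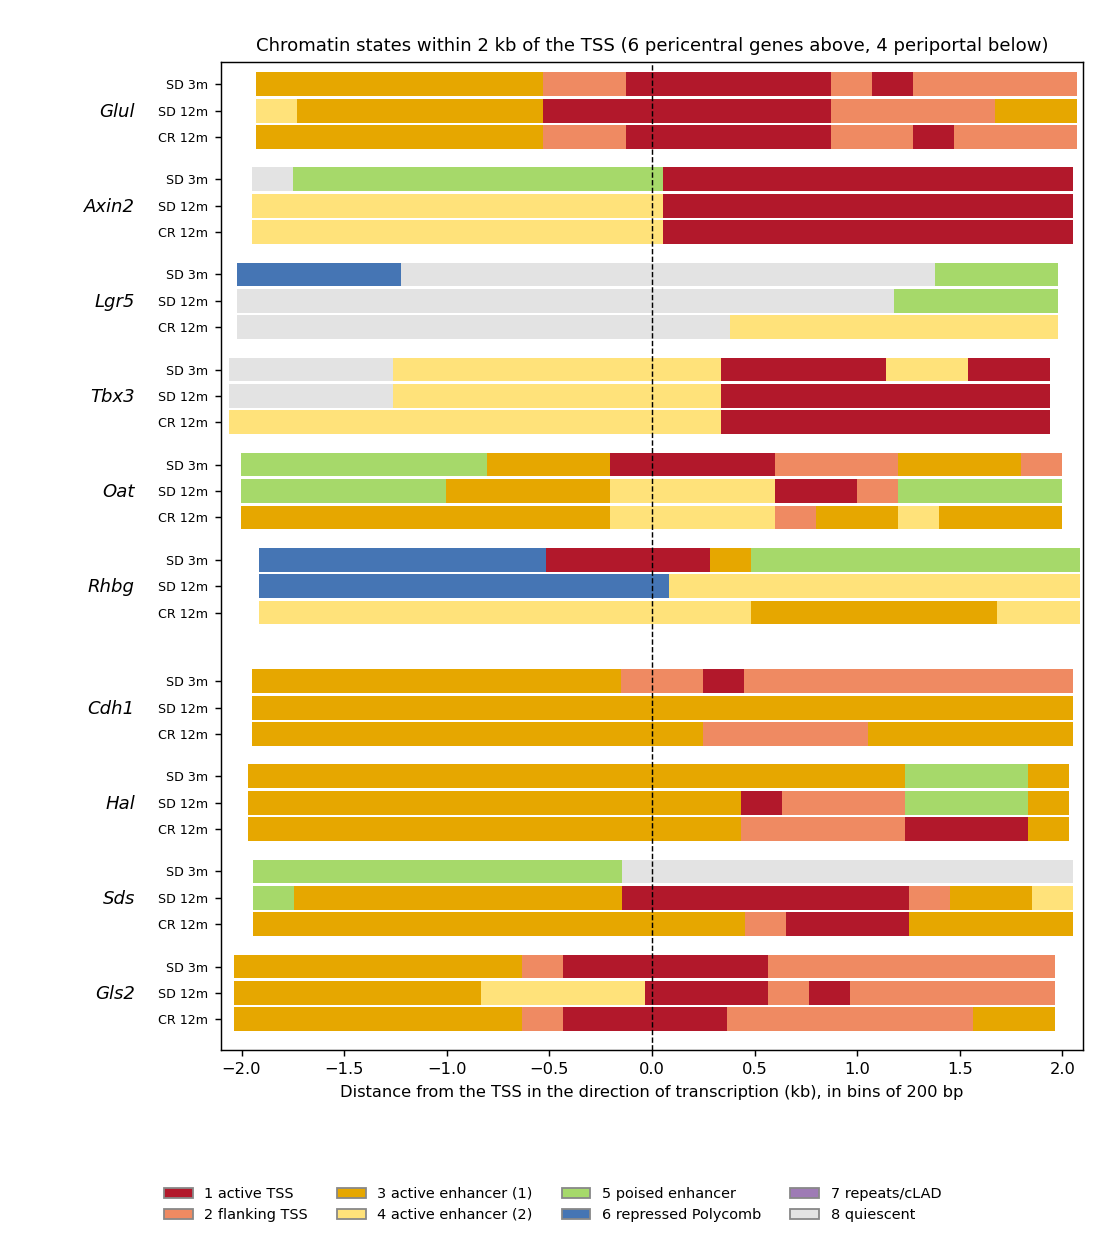
Chromatin state of every bin of 200 bp within 2 kb of the TSS for the 10 genes (names at the left) in SD 3m, SD 12m and CR 12m, against distance from the TSS in kb, and the dashed line marks the TSS. Sds is quiescent from its TSS onwards in SD 3m and active in both groups aged 12 months, and the Rhbg TSS lies in states 1, 6 and 4.

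Glul (chromosome 1, 153899929 to 153909723, plus strand) encodes glutamine synthetase, the enzyme that joins ammonia to glutamate and the classical marker of the hepatocytes next to the central vein. Its 20 bins within 2 kb of the TSS were all in states 1 to 3 in SD 3m and CR 12m, and in SD 12m in states 1 to 4 with 1 bin in state 4. The state differed at 30% of these bins in SD 12m against SD 3m, at 10% in CR 12m against SD 3m and at 30% in CR 12m against SD 12m. All 49 bins of its gene body were in states 1 to 5 in every group. Inside the gene body the poised enhancer state held 15 bins (SD 3m), 17 (SD 12m) and 0 (CR 12m), and state 3 held 20, 24 and 33. Around Glul, the unbroken run of states 1 to 5 measured 34.6 kb in SD 3m, 34.2 kb in SD 12m and 44.2 kb in CR 12m. The microRNA gene Mir8114 starts 3 bp upstream of Glul and shares its TSS bin, so the 2 cannot be separated here.

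Rhbg (chromosome 3, 88242874 to 88254684, minus strand) encodes an ammonium transporter of the Rhesus family. In SD 3m a short run of 4 bins in state 1 (0.8 kb) covered its TSS, with state 6 before it and a bin of state 3 and then state 5 after it. In SD 12m state 6 ended just past the TSS, state 4 starting 84 bp downstream, and in CR 12m the whole window was in state 4 or 3. The edge of the Polycomb state in SD 12m thus lay inside the gene's first bins, and the next bin downstream was in state 4. All 20 bins of the window differed between CR 12m and SD 3m (100%), as in 9.19% of all genes, and 65% differed between SD 12m and SD 3m.

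The body of Rhbg was mostly Polycomb-repressed in SD 3m, with 48 of 59 bins in state 6, while SD 12m had 4 such bins and CR 12m had 36. In SD 12m the bins outside state 6 were 31 in state 8 and 24 in state 4. The bins in states 1 to 5 numbered 11 (SD 3m), 24 (SD 12m) and 23 (CR 12m), so both groups aged 12 months had more of them. The 50 kb downstream of Rhbg were in state 6 at all 250 bins in all 3 groups, and 4 non-coding genes start there, Mir9-1 among them. Upstream, Cct3 and Tsacc start 42.5 and 42.3 kb away and were in state 1 in every group. State 6 also lay between that pair and the gene, at 130 of 250 upstream bins (SD 3m), 20 (SD 12m) and 98 (CR 12m).

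Oat (chromosome 7, 132557475 to 132576398, minus strand) encodes ornithine aminotransferase, which converts ornithine on the way to glutamate. Its TSS was in state 1 in SD 3m and in state 4 in both groups aged 12 months. The run of states 1 and 2 near the TSS measured 1.4 kb in SD 3m, 0.6 kb in SD 12m and 0.2 kb in CR 12m, and in the latter 2 it began 598 bp after the TSS. The promoter states were thus shorter at 12 months under either diet.

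The gene body of Oat was in states 1 to 5 at 80 of 95 bins (SD 3m), 56 (SD 12m) and 95 (CR 12m), so SD 12m was the lowest and CR 12m complete. State 5 held 47, 23 and 0 of these bins, and state 3 held 21, 19 and 43. Upstream of Oat, state 6 held 131 of 250 bins (SD 3m), 82 (SD 12m) and 0 (CR 12m), and states 1 to 5 held 94, 157 and 242. The run of states 1 to 5 around the TSS measured 14.8, 24.2 and 48.4 kb in the same order. Over both flanks, 72.2% of the 500 bins differed between CR 12m and SD 3m, and 0.87% of all genes had as high a share. Between CR 12m and SD 12m 63% differed, as high as in 0.755% of all genes, whereas between SD 12m and SD 3m 29.4% differed, close to the median gene (29.8%). Nkx1-2, a homeobox gene that starts 23.2 kb upstream, was in state 6 in SD 3m and SD 12m and in state 8 in CR 12m, and Lhpp, 34.2 kb upstream, was in states 2, 4 and 3.

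Axin2, Lgr5 and Tbx3 belong to Wnt signalling or are targets of it. Axin2 (chromosome 11, 108920349 to 108950783, plus strand) encodes a scaffold of the complex that degrades beta-catenin and is a general Wnt target. Its TSS bin was in state 5 in SD 3m and in state 4 in SD 12m and CR 12m, but the bin next to it was in state 1 in every group. The run of state 1 and 2 bins began 52 bp after the TSS and measured 3.4 kb in SD 3m, 3.4 kb in SD 12m and 2.6 kb in CR 12m. The difference at the TSS bin thus lay on the upstream side, where SD 3m had 9 bins of state 5 and 1 of state 8, and all of these were in state 4 at 12 months. Between SD 12m and CR 12m none of the 20 bins differed. The rest of the gene differed little, with 3.29% of 152 body bins in another state in SD 12m and 11.8% in CR 12m against SD 3m.

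Lgr5 (chromosome 10, 115450314 to 115587780, minus strand) encodes a receptor for R-spondins, which strengthen Wnt signals. It was the only one of the 10 genes whose TSS was quiescent in every group. Downstream of its TSS the window held 3 bins in state 5 in SD 3m, 4 in state 5 in SD 12m and 8 in state 4 in CR 12m, and none in states 1 or 2. Its gene body of 687 bins was in state 8 at 86.8% (SD 3m), 90.8% (SD 12m) and 93.6% (CR 12m). The upstream 50 kb were in state 6 at 174 of 250 bins (SD 3m), 22 (SD 12m) and 6 (CR 12m), and state 8 took up 73, 211 and 244 bins. No bin of that flank was in states 1 to 5 in any group, and state 7 held the remaining 3 (SD 3m), 17 (SD 12m) and 0 (CR 12m).

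Tbx3 (chromosome 5, 119670862 to 119684724, plus strand) encodes a T-box transcription factor of pericentral hepatocytes. Its TSS bin was in state 4 in each group, and its H3K4me3-rich run began 339 bp downstream. That run measured 0.8 kb in SD 3m, 3 kb in SD 12m and 4.4 kb in CR 12m, and the long non-coding gene Tbx3os1, which starts 646 bp into Tbx3 on the other strand, lay in it. In SD 3m the run was split by 2 bins in state 4, which shortens the value for that group. Apart from these bins, states 1 and 2 had the same outer edges in SD 3m and SD 12m. Polycomb was more extended downstream of Tbx3 at 12 months, where the 50 kb flank held 123 of 250 bins in state 6 (SD 3m), 238 (SD 12m) and 222 (CR 12m). Upstream, state 6 held 60, 68 and 16 bins.

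Among the periportal genes, Sds (chromosome 5, 120476547 to 120483905, plus strand) encodes serine dehydratase, which turns serine into pyruvate. All 37 bins of its gene body were in state 8 in SD 3m, and all 37 were in states 1 to 5 in both groups aged 12 months. SD 12m had 6 bins in state 1, 1 in state 2, 8 in state 3, 9 in state 4 and 13 in state 5, and in CR 12m 25 bins were in state 3. A gene body with every bin in another state was found in 6.76% of all genes in SD 12m and 5.88% in CR 12m against SD 3m. Within 2 kb, 95% of the 20 bins of SD 12m and 100% of those of CR 12m differed from SD 3m.

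Part of the surroundings of Sds was active already at 3 months. Just upstream, states 1 to 5 formed a run of 12.6 kb in SD 3m that ended 147 bp before the TSS, and downstream 225 of 250 bins were in states 1 to 5. Over the whole upstream flank, however, 63 of 250 bins were in states 1 to 5 in SD 3m, while state 6 held 108 and state 8 held 79. In SD 12m and CR 12m the gap over Sds was closed, and the run of states 1 to 5 measured 155 kb in both. Sdsl, a related gene on the other strand, starts 3.72 kb upstream and was in state 3 in all 3 groups. Farther away, Lhx5 and Gm27199 were in state 6 in all 3. In the map of the loci, Sds in SD 3m was the only periportal gene body without an active state.

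**Figure D2:**
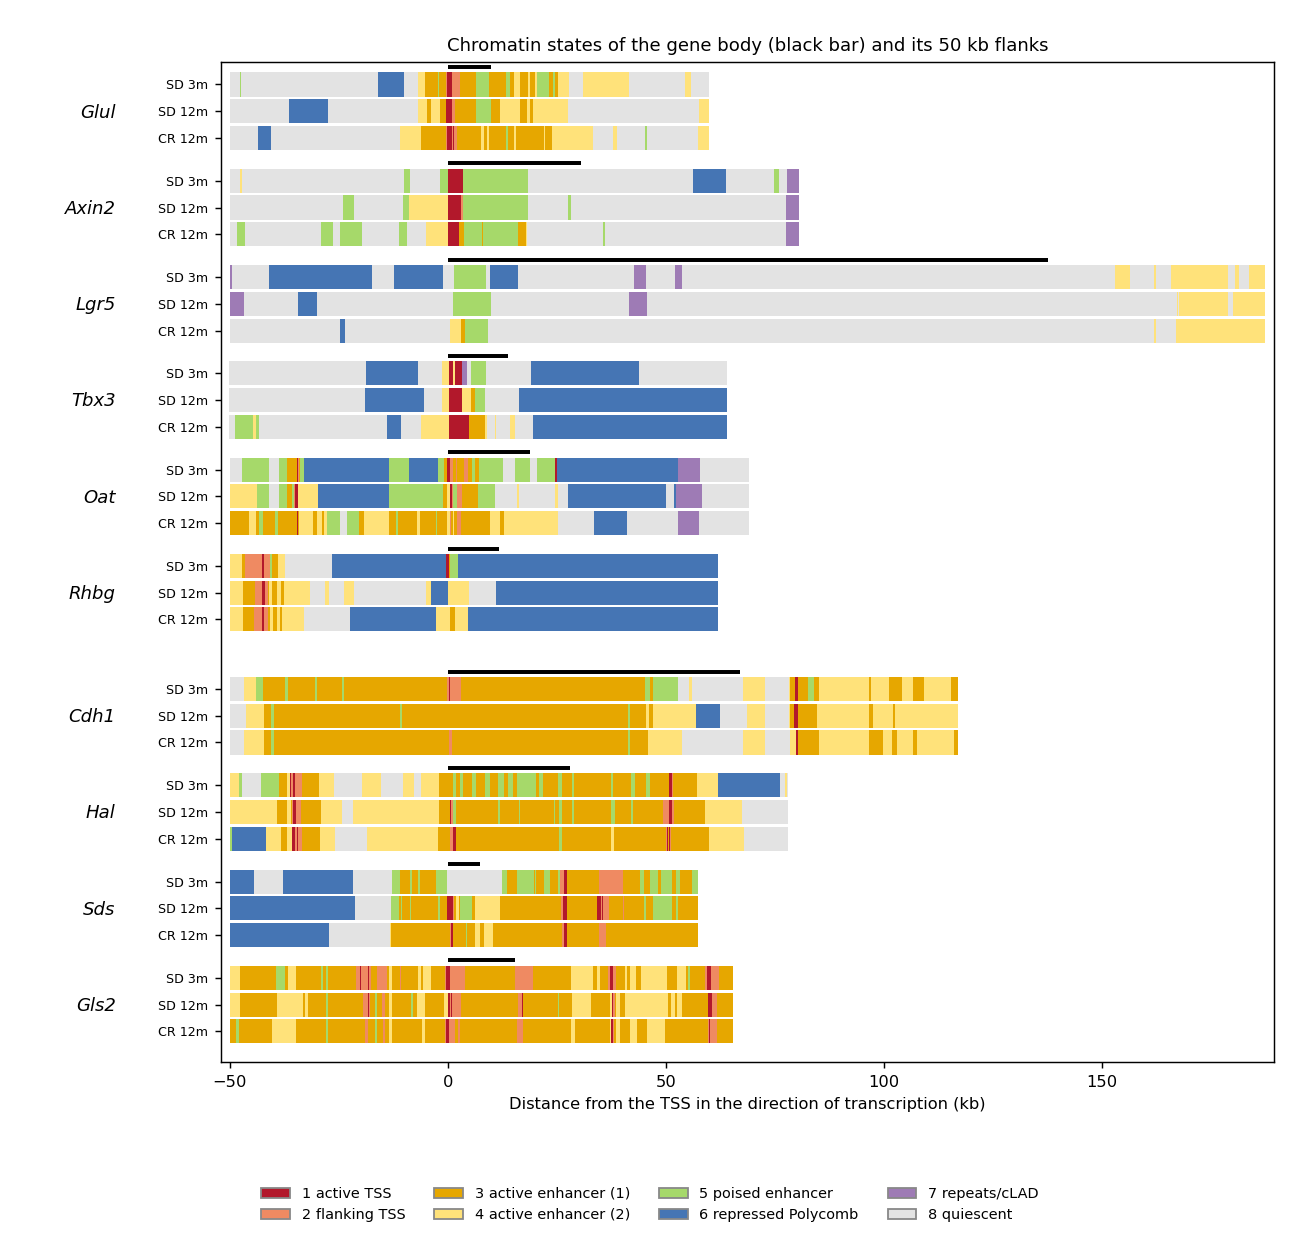
Chromatin states of the gene body (black bar) and the 50 kb before and after it for the 10 genes in SD 3m, SD 12m and CR 12m, with the distance from the TSS in kb. States 1 to 5 hold more of the flanks at the periportal loci (lower 4, 57.6% or more) than at the pericentral loci (upper 6, at most 54.6%, Oat in CR 12m). State 6 upstream of Lgr5 is at 174, 22 and 6 bins and upstream of Oat at 131, 82 and 0.

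Gls2 (chromosome 10, 128194635 to 128210004, plus strand) encodes the liver glutaminase, which releases ammonia from glutamine. It lay in the longest active surroundings of the 10 genes, with an unbroken run of states 1 to 5 of 1087 kb in SD 3m, 1108 kb in SD 12m and 1210 kb in CR 12m. All bins of its body and flanks were therefore in states 1 to 5 in every group. Inside this run the promoter states were shorter at 12 months, with 4.6, 3 and 2.2 kb of states 1 and 2 at the TSS. The neighbours were active too, Spryd4 in states 2, 1 and 2, Mip in 4, 4 and 3, Timeless in 1, 4 and 1, Rbms2 in 2, 3 and 3, and Apon in 1, 3 and 3.

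Hal (chromosome 10, 93488768 to 93516761, plus strand) encodes histidine ammonia-lyase, the first enzyme of histidine breakdown. Its TSS stayed in state 3 in all groups, and the states with H3K4me3 appeared downstream of it: none in SD 3m, 0.8 kb in SD 12m and 1.4 kb in CR 12m, starting 433 bp after the TSS. Its gene body was wholly in states 1 to 5, with 61 of 140 bins in state 5 (SD 3m), 13 (SD 12m) and 4 (CR 12m). State 3 held 79, 123 and 129 of them, so the poised bins of SD 3m were fewer in both older groups. Amdhd1, a later enzyme of the same pathway, starts 51.3 kb downstream of the Hal TSS and was in states 1, 1 and 3.

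Cdh1 (chromosome 8, 106603350 to 106670247, plus strand) encodes E-cadherin, an adhesion protein of periportal hepatocytes that bile duct cells also express. Its states 1 and 2 measured 3.2 kb in SD 3m, 0 kb in SD 12m and 0.8 kb in CR 12m. In SD 12m all 20 bins within 2 kb of the TSS were in state 3, and in CR 12m 16 were. The active surroundings were nearly equal, at 99.4, 103 and 100 kb of unbroken states 1 to 5. In the gene body, state 8 held 67, 22 and 66 of 334 bins, and state 6 held 28 bins in SD 12m alone. Of the bile duct markers, Krt19 was in states 8, 8 and 4, Krt7 in 8, 6 and 4, Sox9 in 7, 4 and 1, and Epcam in 4, 4 and 8, and their part in the states of Cdh1 was not tested.

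Across the 10 genes, a run of states 1 and 2 within 1 kb of the TSS was present in 7 genes (SD 3m), 7 (SD 12m) and 8 (CR 12m), compared to 46.5%, 43% and 40.7% of all TSS. Where present, its median over the genes was 3200 bp in SD 3m, 2200 bp in SD 12m and 1800 bp in CR 12m. Over all TSS the median was 3000, 1800 and 1600 bp, so the genes ran close to the background. The genes with a run were not the same in each group, and with the genes without one counted as 0 the median over all 10 was 1100, 1200 and 1100 bp. Against SD 3m, the run was longer in both older groups for Tbx3, Hal and Sds and shorter in both for Glul, Oat, Rhbg, Cdh1 and Gls2, while that of Axin2 was as long in SD 12m and shorter in CR 12m. For Tbx3, states 1 and 2 reached 3.338 kb past the TSS in both SD 3m and SD 12m. The longer run of SD 12m thus comes only from the 2 bins of state 4 that split it in SD 3m.

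**Figure D3:**
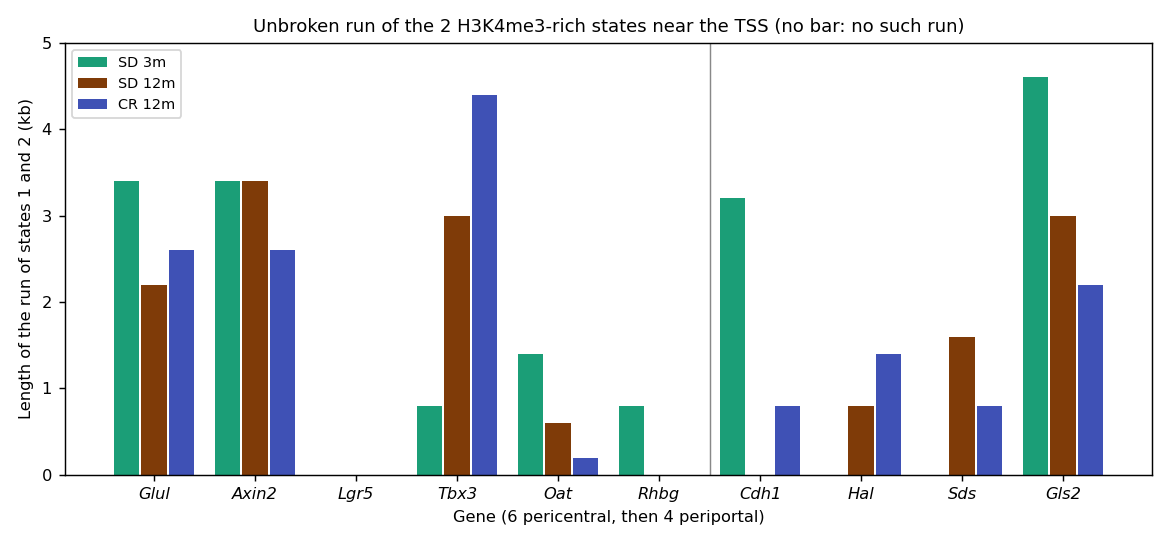
Length in kb of the longest unbroken run of states 1 and 2 within 1 kb of the TSS in the 3 groups (bars) for the 10 genes, where no bar means no such run. Tbx3 has 0.8 kb in SD 3m, where 2 bins of state 4 split its run, and 4.4 kb in CR 12m. Gls2 is longest in SD 3m at 4.6 kb, and Lgr5 has none.

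Over the 200 bins within 2 kb of the TSS of the 10 genes, 43% (Wilson 95% interval 36.3 to 49.9) differed between SD 12m and SD 3m. The share was 51% (44.1 to 57.8) between CR 12m and SD 3m, and 34.5% (28.3 to 41.3) for CR 12m against SD 12m. These intervals treat neighbouring bins as independent, which they are not, and do not cover differences among mice. In the same order of comparisons, 37.1%, 38.2% and 25.5% of the bins differed when the windows of all genes were pooled. The median gene of the 10 differed at 40%, 45% and 32.5% of its bins, and the median of all genes was 30%, 35% and 15%. Over the gene bodies (1700 bins) the shares were 22.6% (20.7 to 24.7), 24.4% (22.4 to 26.4) and 17.7% (16 to 19.6), and Lgr5, with 687 bins, weighs most in them. The medians over the 10 genes were 27.2%, 40.9% and 25.4%, beside 25%, 26.5% and 15.3% over all genes.

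**Figure D4:**
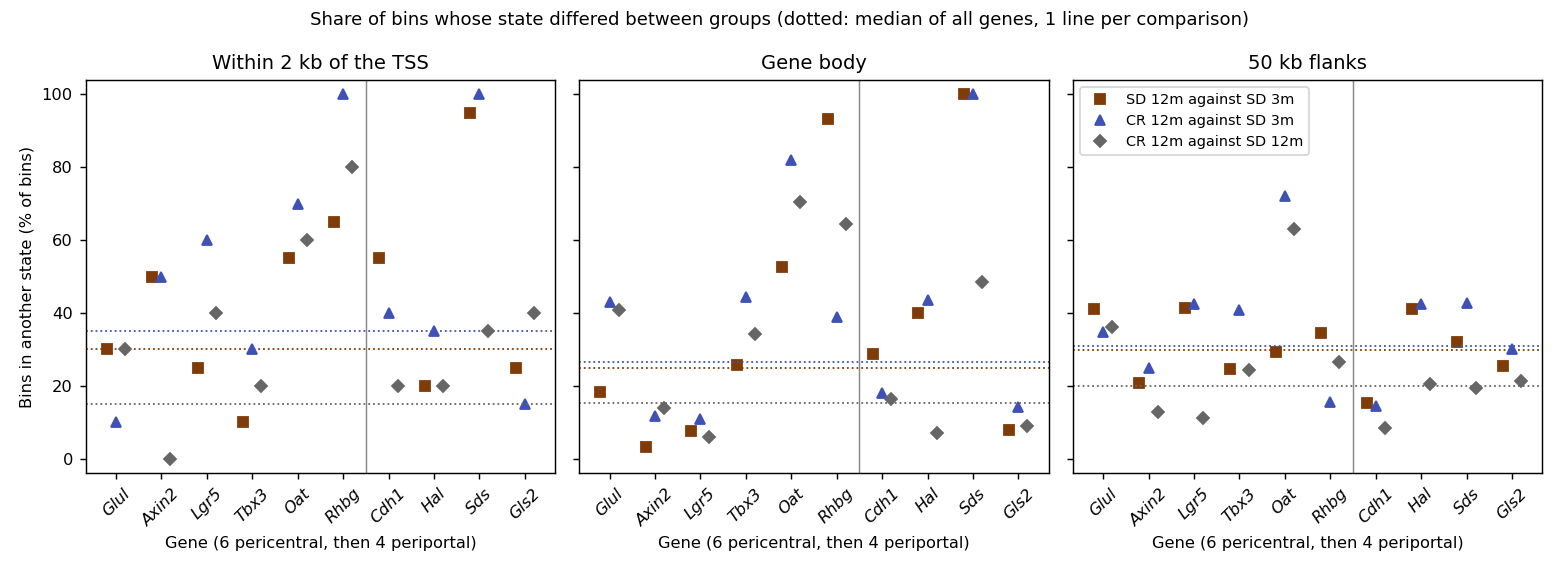
Percent of bins in another state, per gene, within 2 kb of the TSS, in the gene body and in the 50 kb flanks, for 3 comparisons (symbols), with the median of all genes as dotted lines. Rhbg and Sds reach 100% around the TSS in CR 12m against SD 3m, and Oat stands at 72.2% in the flanks.

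Pooled over the 10 genes, the poised enhancer state held fewer bins at 12 months. Within 2 kb of the TSS it held 38 of 200 bins (SD 3m), 17 (SD 12m) and 0 (CR 12m), and over gene bodies 295, 200 and 95 of 1700 bins. The genes differed in this: in SD 12m against SD 3m the body had fewer such bins at Hal (61 and 13), Cdh1 (34 and 2), Oat (47 and 23), Rhbg and Tbx3, and more at Glul, Axin2 (75 and 78), Lgr5 (37 and 43) and Sds (0 and 13). The windows of Oat (6 and 9) and Lgr5 (3 and 4) also had more in SD 12m. Of the 38 bins, 26 were in an active enhancer state in SD 12m (9 in state 3 and 17 in state 4) and 35 in CR 12m (21 in state 3 and 14 in state 4). The TSS windows of all genes also had less of state 5, with 7.69% (SD 3m), 2.43% (SD 12m) and 1.97% (CR 12m). Of their state 5 bins in SD 3m, SD 12m had 17% in state 3 and 45.3% in state 4, and CR 12m had 28.3% and 35.3%.

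The pericentral and periportal genes differed in their surroundings. Of the flank bins of the 4 periportal genes, 78.8% were in states 1 to 5 (SD 3m), 84.7% (SD 12m) and 82.2% (CR 12m). Of those of the 6 pericentral genes, 16.9%, 19% and 27.2% were. The lowest periportal gene, Sds, had 57.6%, 63% and 63.4%, and the highest pericentral gene had 36.8% (Glul), 32% (Oat) and 54.6% (Oat), so the zones did not overlap in any group. The median over all genes was 39.2%, 41% and 41.8%, between them. Other genes start in these flanks, and their states are part of the shares. Their TSS number from 0 (Axin2 and Lgr5) to 6 (Rhbg) at the pericentral genes. At the periportal genes they number from 2 (Cdh1) to 5 (Sds and Gls2), and their part was not tested. With 6 and 4 genes chosen by name, this describes these loci and not the zones at large.

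State 6 was unevenly spread. It held 1073 of 3000 pericentral flank bins (35.8%) in SD 3m, while SD 12m had 838 (27.9%) and CR 12m 645 (21.5%), beside a mean over all genes of 13.6%, 13.8% and 11.6%. In the periportal flanks it held 179, 143 and 151 of 2000 bins. The zones overlapped in this state: in SD 3m Rhbg (76%), Oat (54%), Tbx3 (36.6%) and Lgr5 (34.8%) were above every periportal gene, whereas Axin2 (7.4%) and Glul (5.8%) were below Sds (21.6%) and Hal (14.2%). Lgr5, Oat, Rhbg and Axin2 had fewer state 6 flank bins in both older groups than in SD 3m and Tbx3 had more, so the pericentral genes did not move together. Over all flanks (5000 bins), the share in another state was 30.6% (29.3 to 31.9) in SD 12m against SD 3m, 36.1% (34.8 to 37.4) in CR 12m against SD 3m and 24.4% (23.2 to 25.6) in CR 12m against SD 12m. The median of all genes was 29.8%, 31% and 20%.

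**Figure D5:**
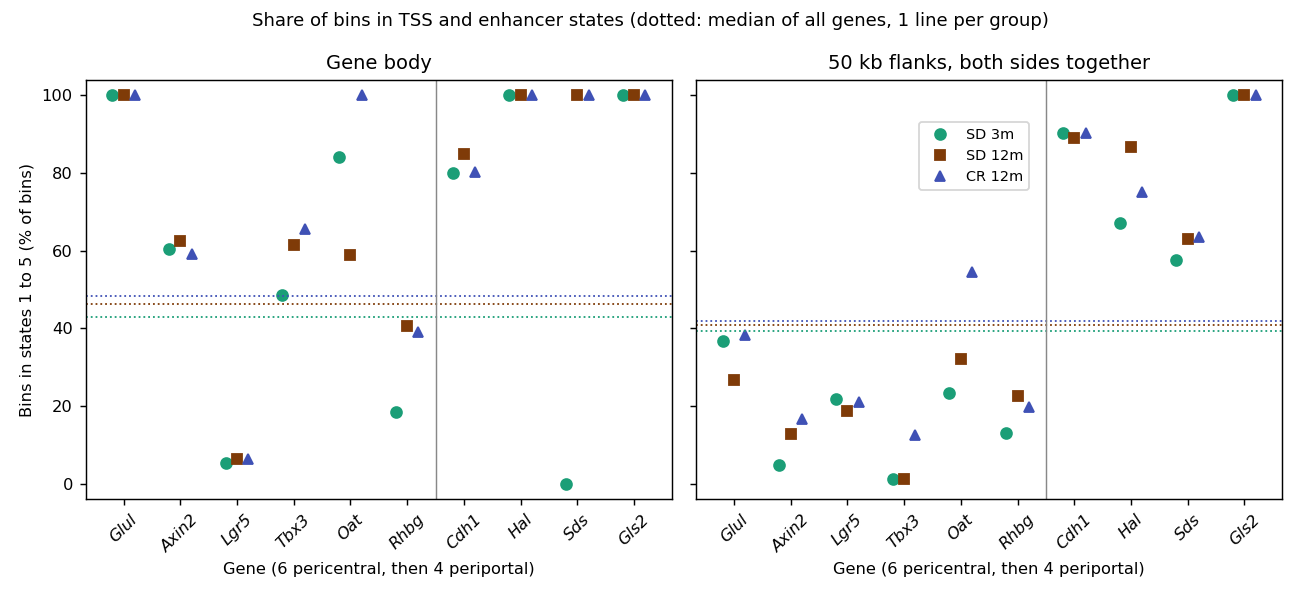
Percent of bins in states 1 to 5 in the gene body and the 50 kb flanks of each gene in SD 3m, SD 12m and CR 12m (symbols), with the median of all genes as dotted lines. In the flanks the 4 periportal genes lie above all 6 pericentral genes, and in the gene bodies Sds goes from 0% in SD 3m to 100% in both older groups.

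The wider lists of genes around these functions were compared at the TSS bin. Of 20 other pericentral genes, 17 were in states 1 to 5 in every group, and of 20 other periportal genes all 20 were. The share of all TSS was 58.2% (SD 3m), 58.3% (SD 12m) and 58.9% (CR 12m). None of either list crossed between states 1 to 5 and states 6 to 8. Against SD 3m, 2.6% of all TSS moved into states 1 to 5 and 2.48% out of them in SD 12m. In CR 12m 3.39% moved into them, so no crossing among 20 genes is close to these shares. The TSS bin differed in 5 of the 20 other pericentral genes in SD 12m and 7 in CR 12m against SD 3m, and in 6 and 4 of the 20 periportal ones. These are 25%, 35%, 30% and 20% of the lists, against 32.6% and 34.7% of all TSS in SD 12m and CR 12m. Among 30 genes of Wnt signalling, 12 (40%) differed in SD 12m and 15 (50%) in CR 12m against SD 3m, and 21, 22 and 24 were in states 1 to 5 in SD 3m, SD 12m and CR 12m. Wnt9b, a ligand of the central vein, and Porcn, which acylates Wnt ligands, were in states 6, 8 and 4. Znrf3, a ubiquitin ligase that removes Wnt receptors, was in states 7, 4 and 4.

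Of 27 genes of ammonia and glutamine handling, 26, 25 and 25 were in states 1 to 5, and 9 (33.3%) differed in each comparison with SD 3m, close to the share of all TSS. In states 1 and 2 there were 22, 17 and 19 of them. Over all TSS these states were also rarer at 12 months. State 1 held 30.2%, 29.8% and 25.9% of all TSS, and state 2 held 9.86%, 4.91% and 4.82%. The TSS bin moved from states 1 or 2 to states 3 to 5 for 5 genes in SD 12m (Slc38a3, Slc38a4, Slc7a2, Arg1 and Got2) and for 3 in CR 12m (Slc38a3, Slc38a4 and Amdhd1). Of all TSS, 6.03% (SD 12m) and 9.81% (CR 12m) made that move against SD 3m. Rhag, a relative of Rhbg from red blood cells, was the gene of this list that crossed, with states 4, 8 and 8. Rhcg, another member of the family, was in state 6 throughout. The urea cycle genes Cps1 and Ass1 were in state 1 in all 3 groups.

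The states within 2 kb of the TSS were also matched to all other genes, over 60 labels (20 bins in 3 groups). Cdh1 was most like Slc50a1, with 56 labels in common, Axin2 like Gja1 and Gls2 like Sh3d19, with 53 each, and Glul like Snx25 and Tbx3 like Tox, with 52 each. Lgr5 was most like 4933400F21Rik (49), Rhbg like Gm3225 (44), Sds like Adam11 (42) and Oat like Igf2r (40), and Hal had 2 genes tied at 48. The lowest values belonged to Oat, Sds and Rhbg, the genes whose TSS windows differed most between CR 12m and SD 3m.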

How the data were processed

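Histone ChIP-seq libraries of livers were grouped by the age and diet in the labels. The authors aligned the reads to mm10 (BWA 0.6.2-r126 and SAMtools 0.1.18, per the submitters' processing notes), merged the libraries of a group, binarized them in bins of 200 bp with ChromHMM, trained 1 model of 8 states and deposited the state label of every bin. These deposited labels are category codes, with no unit, counts or signal, so depth is unknown, and merging, binarization and smoothing could not be repeated here. The 3 segmentations held the same 13168874 bins on chromosomes 1 to 19 and X, with ends that fit GRCm38.p6 on all 20 chromosomes.

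Here, the TSS and gene body were those of the longest curated RefSeq transcript (by genomic span) of each of 26089 genes, in Python 3.11.15 with numpy 2.4.6, pandas 2.3.3, scipy 1.17.1 and matplotlib 3.10.9. A bin belonged to a region if its centre lay in it. Windows reached 2 kb and flanks 50 kb. The H3K4me3-rich run was the longest run of states 1 and 2 overlapping 1 kb around the TSS, and the run of states 1 to 5 was found in the same way. The counting functions were tested on simulated segmentations. No test between groups was possible with 1 segmentation each. The named genes were the 10 members, the genes starting in their flanks, list genes that crossed between states 1 to 5 and 6 to 8 (at most 4 per list), and the gene most like each member, at least 100 kb away. Markers and other genes named beyond that, including Cps1, Ass1, Slc38a3, Slc38a4, Slc7a2, Arg1, Got2 and Rhcg, were chosen after their values were seen. The members and lists were chosen with earlier results of these data known.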

Additional observations from a re-analysis of the deposited data

How the results depend on the processing

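The cause of the moves was not tested unless the alternative's construction shows it. Of 57 alternative values for 15 results, 38 stayed within the range given for the main value and 19 moved. That range was 1.5 times a count, or the Wilson 95% interval of a share. The interval is narrower where more bins are counted, so a shift that stays within it near the TSS can leave it in the flanks. The tally therefore does not measure how stable the results are. The 38 include all values read at the TSS of the most 5-prime curated transcript, which equalled the main values. That setting could change Tbx3 at most, which has 2 curated TSS, because every other gene has 1. Those values therefore say nothing about how the other genes depend on the choice of TSS. With the bin 1 place downstream of the TSS bin, 1 gene instead of 2 differed between CR 12m and SD 12m at the TSS, as Rhbg was then in state 4 in both. With 5 classes (states 1 and 2, 3 to 5, 6, 7 and 8), which can only lower a share, 24%, 30.5% and 19% of the bins within 2 kb of the TSS differed in SD 12m against SD 3m, CR 12m against SD 3m and CR 12m against SD 12m. The same classes gave 15.6%, 11.9% and 10.7% for gene bodies and 23.1%, 26.5% and 16.6% for the flanks. A window of 1 kb gave 41% in CR 12m against SD 3m and 46% in SD 12m against SD 3m, which turned the order of these comparisons (51% and 43% with 2 kb). The median over the genes in place of the pooled bins gave 27.2%, 40.9% and 25.4% for gene bodies, where Lgr5 holds the most bins, and 37.8% and 20.8% for the flanks in CR 12m against SD 3m and against SD 12m. Flanks of 100 kb gave 33.6% and 38.6% in SD 12m and CR 12m against SD 3m, and flanks of 20 kb gave 28.3% in CR 12m against SD 12m. No replicate could be left out, because the libraries of a group were merged before states were assigned. No paired analysis was possible because the result comes from no test. Depth is unknown, so its effect on which bins carry a mark could not be measured.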
